A study of Mus musculus with 8 samples.

Results

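Long miRNA reads were taken to be sequences of at least 24 nt that carry the name of a mature miRNA. Of 47204 distinct sequences in the table of RISC-bound small RNAs (R-sRNAs), 26201 had a miRNA name and 6401 of these were long. They came from 424 of 895 miRNA names. The R-sRNAs were from brain, cortex and hippocampus combined, of mice with the genotype 5XFADtg/Rubicon het (4 libraries) or 5XFADtg/Rubicon ko (4 libraries), each from a different mouse. Both genotypes therefore carry the 5XFAD transgenes, which are driven in neurons by the Thy1 promoter and lead to amyloid plaques, and they differ in whether 1 copy of the autophagy regulator Rubicon is left. Argonaute complexes were captured from lysate with a GW182 peptide, RNA of 19 to 35 nt was cut from a gel, and small RNA libraries with fragments of 140 to 160 bp were sequenced. Ages were not given in the labels, and mice with 2 intact Rubicon copies or without the transgenes were not analysed here.

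A miRNA is cut from its hairpin by Drosha and Dicer, and the position of these cuts sets its ends. A guide can be longer than the annotated mature sequence because a cut fell further out, in which case the additional bases match the hairpin (templated), or because a terminal nucleotidyl transferase added bases, most often A or U, to the 3′ end after the cut (tailed). Bases 2 to 8 of a guide, the seed, choose its targets, so 3′ extension leaves the seed as it is, while tailing has been linked to guide turnover and is known from target-directed degradation.

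The sequences below show 3 kinds of long read, chosen among the most abundant long reads and among the miRNAs described later. Mature sequences are from RefSeq (GRCm38) with the seed in capitals. The reads are from the deposited table, written as DNA. The first set shows templated reads, in which the capitals are the bases past the RefSeq mature end, all of which match the hairpin.
miR-30c-5p mature: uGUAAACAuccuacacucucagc
miR-30c-5p read of 24 nt: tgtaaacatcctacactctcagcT
miR-30e-5p mature: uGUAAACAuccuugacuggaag
miR-30e-5p read of 24 nt: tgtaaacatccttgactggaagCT
miR-30a-5p read of 24 nt: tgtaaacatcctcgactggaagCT
miR-181a-5p mature: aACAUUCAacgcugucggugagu
miR-181a-5p read of 25 nt: aacattcaacgctgtcggtgagtTT
miR-342-3p mature: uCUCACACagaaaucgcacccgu
miR-342-3p read of 24 nt: tctcacacagaaatcgcacccgtC
miR-7a-5p mature: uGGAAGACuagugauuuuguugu
miR-7a-5p read of 24 nt: tggaagactagtgattttgttgtT
miR-138-5p mature: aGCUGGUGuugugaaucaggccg
miR-138-5p read of 24 nt that matches Mir138-1: agctggtgttgtgaatcaggccgT
miR-138-5p read of 24 nt that matches Mir138-2: agctggtgttgtgaatcaggccgA
The second set shows tailed reads, in which the capitals are the bases that do not match the hairpin.
let-7b-5p mature: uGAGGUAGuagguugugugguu
let-7b-5p most abundant long read: tgaggtagtaggttgtgtggttAT
let-7b-5p next long read: tgaggtagtaggttgtgtggtttT
let-7b-5p further long read: tgaggtagtaggttgtgtggttAA
miR-26a-5p most abundant long read: ttcaagtaatccaggataggctAT
miR-9-5p most abundant long read: tctttggttatctagctgtatgaA
miR-204-5p most abundant long read: ttccctttgtcatcctatgcctgT
The third set shows mature sequences that already reach 24 nt or more in RefSeq, so that a long read of them need not be extended.
miR-125a-5p mature: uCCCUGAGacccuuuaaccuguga
miR-7b-5p mature: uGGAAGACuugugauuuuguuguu
miR-182-5p mature: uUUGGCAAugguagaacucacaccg
miR-361-3p mature: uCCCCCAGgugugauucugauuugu
By shared seed, miR-30a-5p, miR-30c-5p and miR-30e-5p had GUAAACA, and miR-7a-5p and miR-7b-5p had GGAAGAC.

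Levels are given as CPM, counts per 1000000 reads of the library. Libraries held between 509839 and 19878054 reads, and both libraries over 5000000 reads were ko (replicates 1 and 2), so that this depth and genotype cannot be told apart. No sequence among them bears on the Rubicon genotype, which could not be checked. The neuronal miR-124-3p, miR-9-5p and miR-128-3p stood at means of 52509, 57047 and 68599 CPM over all lengths. A level of 3 reads was 5.79 CPM in the shallowest library, het replicate 1, and 0.151 CPM in the deepest, ko replicate 2. Between 1565 and 6016 of the long sequences were seen per library, 688 were seen in all 8 and 329 in 1 only. The 346 long sequences that averaged 10 CPM or more held 85.4% ± 0.362 of long reads (SD, n = 8).

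Long reads made up a small share of miRNA reads in every library. The length classes fell steeply at the chosen limit, from 16.6% ± 0.992 of miRNA reads at 23 nt to 3.71% ± 0.289 at 24 nt and 0.604% ± 0.104 at 25 nt (SD, n = 8). Of the long reads, 83.7% ± 1.45 were 24 nt, 13.5% ± 1.37 were 25 nt and 2.31% ± 0.262 were 26 nt, and the longest had 29 nt.

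To ask whether long guides differ with the loss of Rubicon, the share of miRNA reads that were long was compared between genotypes. In het it was 4.64%, 4.22%, 3.93% and 5.04% in replicates 1 to 4. In ko it was 4.30%, 3.98%, 4.70% and 4.69%. The genotypes overlapped, with a mean of 4.46% ± 0.485 for het against 4.42% ± 0.344 for ko (SD, n = 4 each, exact permutation test, two-sided, p = 1.0). For single libraries 95% Wilson intervals, which cover counting error only, were at most 0.118 percentage points wide, narrower than the spread between mice. With 4 libraries each the smallest p this test can give is 0.0286.

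The long reads ended in T far more often than in any other base. T was the last base of 68.4% ± 2.92 of long reads, A of 22.4% ± 2.20, C of 6.45% ± 1.46 and G of 2.69% ± 0.388 (SD, n = 8 libraries). Among miRNA reads under 24 nt, T ended 52.9% ± 1.99, A 20.5% ± 2.55, C 11.1% ± 1.02 and G 15.4% ± 1.67. Within libraries the long reads thus had T at the end 15.5 percentage points more often, higher in 8 of 8 libraries (exact sign-flip permutation p = 0.00781, the smallest 8 libraries can give, adjusted p = 0.0104 over the 4 bases). G was 12.7 percentage points less frequent and C 4.68 less, lower in 8 of 8 libraries each (exact sign-flip permutation, adjusted p = 0.0104 each). A was 1.89 percentage points more frequent, in 7 of 8 libraries (exact sign-flip permutation, adjusted p = 0.0156). The A difference turned to -3.48 when long meant at least 26 nt. Without miR-30c-5p, whose main long read ends in T, the T share was 63.7% ± 2.72 against 53.3% ± 1.99, and the A difference grew to 5.27 percentage points, higher in 8 of 8 libraries (25.8% ± 1.89 against 20.5% ± 2.54).

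Between genotypes the last bases overlapped. In het T ended 68.4% ± 0.502 of long reads, against 68.5% ± 4.44 in ko, and A ended 22.4% ± 1.19 against 22.5% ± 3.13 (SD, n = 4 each, exact permutation p = 0.971 and 1.0). The ko libraries were more spread, with T from 63.7% in replicate 3 to 73.4% in replicate 2. G, the rarest end, was 2.62%, 3.15%, 2.88% and 3.23% in het replicates 1 to 4, against 2.13%, 2.53%, 2.74% and 2.27% in ko replicates 1 to 4. Its lowest het library lay within the ko range, and the difference of -0.551 percentage points did not pass (exact permutation p = 0.0571, adjusted p = 0.514 over 9 measures of long reads).

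Where long reads could be set against their hairpin, most were templated. RefSeq hairpins were matched for 347 of the 424 names, which held 85.5% ± 1.23 of long reads. Of these reads 57.4% ± 2.77 matched the hairpin over their whole length and 39.2% ± 2.92 matched over at least 18 bases and ended in a tail that did not. The remaining 3.34% ± 0.520 did not match over 18 bases from their start, and for most of them (2.94% ± 0.445 of the reads) a match of 18 bases began after 1 to 3 bases at the 5′ end. An added base that happens to equal the next base of the hairpin counts as templated, and a read that runs past the end of the hairpin record or mismatches after base 18 counts as tailed, so the shares can err either way. For comparison, tails were on 11.4% ± 0.728 of matched miRNA reads under 24 nt.

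Most long reads kept the annotated start, while a 3′ end past the mature end is largely built in by the choice of long reads. The mature start was kept in 94.5% ± 0.476 of matched long reads, 1.16% ± 0.150 started before it and 1.01% ± 0.123 after it. Relative to the RefSeq mature length, 40.5% ± 2.35 were 1 nt longer, 41.7% ± 1.07 were 2 nt longer and 7.93% ± 0.387 were 3 nt longer. A further 7.68% ± 1.43 had the annotated length itself and 0.590% ± 0.158 were shorter than it. Neither the tailed share (38.5% ± 2.55 in het, 40.0% ± 3.46 in ko, exact permutation p = 0.514) nor the share with an earlier start (1.23% ± 0.188 and 1.09% ± 0.0506, exact permutation p = 0.143) passed the test between genotypes (n = 4 each).

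Tails were short and made of A and U. Of tailed long reads, 43.7% ± 2.18 had a tail of 1 nt, 45.4% ± 1.71 of 2 nt and 9.31% ± 0.614 of 3 nt. Tails of T alone (U in the RNA) made up 34.7% ± 1.96, tails of A alone 30.5% ± 2.52 and mixtures of both 27.5% ± 1.57, while 7.29% ± 0.617 held a C or G. The most frequent single tails were T (24.8% ± 1.23), AT (19.6% ± 1.21), A (17.0% ± 2.27), AA (11.7% ± 0.930) and TT (8.09% ± 0.610), as SD over 8 libraries. Templated reads also ended mostly in T, in 72.0% ± 5.16 of cases, against 60.3% ± 2.59 of tailed reads. The templated class can hold added T that equals the hairpin's next base, and the T-ended read of miR-30c-5p is its most abundant, so the part of tailing in these T ends was not tested.

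The miR-30 family, whose 5p guides share the seed GUAAACA, gave 23.4% ± 4.05 of all long reads, counted over both arms. miR-30c-5p alone gave 14.6% ± 2.67 and was the most abundant long miRNA. Its long level was 5601, 5595, 6236 and 6632 CPM in the het libraries, against 6907, 7354, 6375 and 4613 CPM in ko replicates 1 to 4, and the genotypes overlapped. Long reads were 45.8% ± 3.38 of all its reads, and 93.4% of them were templated. The main long read, with 1 base beyond the mature end, reached 5733 ± 826 CPM and exceeded the mature 23 nt form at 2728 ± 419 CPM (SD, n = 8), so that the longer form was the more abundant one. Both hairpins of miR-30c hold this base and cannot be told apart by it. Mir30c-1 lies at chr4:120769534-120769622 on the minus strand in an intron of Nfyc, and Mir30c-2 at chr1:23291701-23291784 on the plus strand in an exon of the noncoding Gm27028 (GRCm38).

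Other members of the family also had many long reads. miR-30e-5p, at chr4:120772606-120772697 and likewise in an intron of Nfyc, was 25.2% ± 2.60 long, with 1410 ± 342 CPM, and miR-30d-5p was 15.8% ± 1.84 long, with 1200 ± 171 CPM. miR-30a-5p was 19.6% ± 2.57 long. For miR-30e-5p and miR-30a-5p, 87.4% of long reads each were templated, chiefly the CT-ended read shown above. miR-30b-5p, in contrast, was 0.931% ± 0.220 long (SD, n = 8 for each).

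let-7b-5p held the second place by the opposite route. The let-7 family consists of abundant guides that restrain growth and stem cell programmes. let-7b-5p had 2378, 2395, 1650 and 3430 CPM of long reads in the het libraries, against 2557, 1546, 3728 and 2758 CPM in ko. These were 7.13% ± 0.783 of its reads, and 97.2% of them were tailed. Its most abundant long read, with the tail AT, was at 888 ± 261 CPM, the T-tailed read at 612 ± 197 and the AA-tailed read at 327 ± 113 CPM, all far below the 22 nt form. The genotypes overlapped for each of them.

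The remaining 8 of the 10 highest long levels were between 1200 and 2228 CPM. miR-138-5p, which limits dendritic spine size, had 2228 ± 814 CPM and was 29.7% ± 5.81 long, 74.5% of it templated. miR-181a-5p had 2140 ± 1080 CPM and was 18.2% ± 7.25 long, 89.6% of it templated. In contrast to miR-30c-5p its long share was uneven between mice, from 9.39% in het replicate 2 to 31.9% in ko replicate 4.
miR-222-3p, a regulator of cell cycle exit, had 2099 ± 654 CPM and was 16.8% ± 2.55 long. Its templated reads, 63.6% of the total, were led by reads that end in C (986 ± 410 CPM) and CT (335 ± 98.2 CPM), its tailed ones by a T-tailed read (159 ± 38.7 CPM). miR-125a-5p had 1867 ± 541 CPM, of which the 24 nt mature form itself gave 1592 ± 477 CPM, so that most of its long reads are of the annotated length. miR-23b-3p (1716 ± 337 CPM, 13.2% ± 2.02 long) and miR-342-3p (1213 ± 391 CPM, 47.5% ± 4.28 long, 88.6% templated) complete the list with the pair from the miR-30 family described above. Together these 10 miRNAs gave 53.1% ± 1.65 of long reads (SD, n = 8).

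miRNAs differed widely in the share of their reads that was long. Over the 278 miRNAs that averaged 100 CPM or more in all the median share was 1.64%, with quartiles at 0.336% and 5.99%. The share was over 10% in 50 of them, over 30% in 13 and under 1% in 111, and 20 had no long read. miRNAs of the 5′ arm were 5.41% ± 0.454 long and those of the 3′ arm 3.25% ± 0.446 (SD, n = 8 libraries, summed over 393 and 466 names).

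The highest shares belonged to the miR-7 pair, guides known for target-directed degradation through the long noncoding RNA Cyrano. miR-7a-5p was 63.9%, 50.3%, 50.1% and 57.5% long in het and 53.5%, 53.0%, 49.0% and 52.0% in ko. Over 50% of its reads were thus long in 7 of 8 libraries, and 94.4% of the long reads were templated, with few tails. miR-7b-5p was 48.2% ± 10.4 long, where its most abundant long read is the annotated 24 nt mature form. miR-7a-5p comes from Mir7-1 (chr13:58392779-58392886, minus strand, in an intron of Hnrnpk) and Mir7-2 (chr7:78888277-78888373, plus strand, outside other genes).
miR-342-3p (47.5% ± 4.28) and miR-30c-5p followed, and then miR-361-3p with 43.7% ± 6.01, whose RefSeq form has 25 nt. miR-181c-5p (42.6% ± 9.77), miR-666-3p (40.1% ± 8.48) and miR-3102-3p (39.2% ± 4.31) complete the 8 highest among miRNAs of at least 100 CPM. Neighbours in this order differed by less than the larger of their SDs. Among the miRNAs named, het replicate 1 stood apart from the other het libraries in the long share of miR-125a-5p (28.2%) and let-7b-5p (7.77%) and in the long level of miR-361-3p.

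High shares went with templated ends, which is in part built in. Of 125 miRNAs with at least 10 CPM of long reads and a hairpin, 27 had at least 75% templated long reads, 52 had at least 75% tailed ones and 46 lay between. The median long share was 20.9% in the first group and 3.80% in the second. This is a description over miRNAs, which share libraries.

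Because a longer read reaches further into the hairpin, long reads matched a single one of paralogous hairpins more often than shorter reads did. For miR-138-5p, 99.7% of templated long CPM matched a single hairpin, against 0.578% of templated reads under 24 nt. Mir138-1 (chr9:122682876-122682974, plus strand, in an exon of the pseudogene Gm47135) took 70.8% ± 7.56 of these reads and Mir138-2 (chr8:94324311-94324381, plus strand, in an exon of the noncoding C78859) 29.2% ± 7.56 (SD, n = 8), with 73.6% for Mir138-1 in het and 68.1% in ko. At 24 nt the reads of Mir138-1 had 923 ± 389 CPM and those of Mir138-2 459 ± 169 CPM, while at 25 nt they had 271 ± 124 and 1.67 ± 1.77 CPM. The single T or A that separates the 24 nt reads is also what tailing adds, and its part in these shares was not tested.
For let-7c-5p, Mirlet7c-2 took 76.8% ± 7.26 and Mirlet7c-1 23.2% ± 7.26 of templated long reads, which for this miRNA total 181 CPM. Of miR-29b-3p long reads that match a single hairpin, 98.4% ± 0.967 matched Mir29b-2 (chr1:195037040-195037120, plus strand, in an exon of the noncoding A330023F24Rik), and of those of miR-218-5p 85.4% ± 5.91 matched Mir218-2. The reads that match Mir29b-2 and Mirlet7c-2 are led by T-ended ones (460 CPM and 137 CPM), an end that tailing also gives, and its part was not tested here either. For miR-181a-5p and miR-30c-5p the hairpins agree past the mature end, so that only 0.0624% and 0.271% of templated long CPM matched a single one.

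Seed viability, the deposited mean viability of 3 mouse cell lines after transfection of an siRNA with the 6mer seed at bases 2 to 7, was higher among long reads. Weighted by CPM it was 63.9 ± 0.975 for long reads and 56.1 ± 0.794 for reads under 24 nt, higher in 8 of 8 libraries. The seed GUAAAC of the miR-30 family made up 17.7% to 29.2% of long reads and 2.53% to 3.63% of shorter ones, and GAGGUA of let-7 7.65% to 11.9% and 16.2% to 21.6%. Without GUAAAC the means were 60.1 ± 1.21 and 55.4 ± 0.856 (SD, n = 8). For het the mean was 63.7 ± 1.16 against 64.0 ± 0.892 for ko (n = 4 per genotype, p = 0.657 by exact permutation). The long reads had a mean length of 24.2 nt in both genotypes (p = 0.714 by exact permutation).

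To find single miRNAs whose long reads changed with genotype, CPM was summed by miRNA and length class, long or under 24 nt. The 612 sums whose mean reached 10 CPM entered a single limma fit of log2(CPM + 1), a scale that makes fold changes of low sums look smaller than they are. Of 154 long sums, 4 passed at a limma adjusted p under 0.05, all lower in ko, where 1.63% of all 612 sums passed. They belonged to the miR-200 family (miR-200a-3p, miR-200b-3p and miR-429-3p), which represses the epithelial-to-mesenchymal factors Zeb1 and Zeb2, and to miR-182-5p of the sensory miR-183 cluster. At an unadjusted p under 0.05, 8 long sums were lower and 0 higher, where 6.86% of all sums had such a p (6.54% lower and 0.327% higher). The 4 beyond the called ones were miR-136-5p, miR-219a-5p, miR-451a and miR-153-3p. The median log2 fold change of the 154 long sums was 0.00, beside -0.08 over all 612. These values depend on the scaling. With libraries centred on their median, 6 long sums were lower and 2 higher at an unadjusted limma p under 0.05, beside 24 and 12 of all 612. The medians were then 0.20 and 0.12, and 4 long sums were again called, all lower in ko.

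Long reads of these 4 were scarce and carried different ends. In ko the long level averaged 5.16 CPM for miR-200b-3p and 3.47 CPM for miR-429-3p, so both reached 10 CPM through the het libraries alone. Their calls therefore describe sums that passed and support nothing further. miR-200b-3p had 50.2, 37.8, 24.9 and 129.9 CPM in the het libraries, against 2.04, 2.96, 10.7 and 4.90 in ko, for replicates 1 to 4. Every ko library was below every het library, and het replicate 4 was the highest by far (log2 fold change -3.24, SE 0.59, limma adjusted p = 0.0122). Its long reads were 80.8% tailed.
miR-429-3p had 25.1, 31.6, 28.3 and 84.5 CPM in the het libraries, against 2.16, 1.91, 0 and 9.80 CPM in ko. Every ko library was again below every het library (log2 fold change -3.60, SE 0.72, limma adjusted p = 0.0235), and in 1 of them no long read was counted. Tails were on 98.4% of its long reads.
miR-200a-3p had 98.5, 79.8, 47.8 and 166.3 CPM in the het libraries, against 4.45, 5.22, 21.9 and 30.4 CPM in ko. It did not overlap between genotypes (log2 fold change -2.85, SE 0.59, limma adjusted p = 0.0256), and 94.6% of its long reads were tailed.
miR-182-5p had 127.4, 99.0, 62.5 and 273.3 CPM in the het libraries, against 16.9, 6.38, 33.9 and 33.3 CPM in ko, with no overlap (log2 fold change -2.62, SE 0.55, limma adjusted p = 0.0256). In contrast to the 3 others, 84.2% of its long reads were templated, and its RefSeq mature form has 25 nt. The hairpins of miR-200a, miR-200b and miR-429 lie together at chr4:156053905-156055750 on the minus strand within Ttll10, and that of miR-182 at chr6:30165918-30165992, minus strand, outside other genes.

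In bulk tissue, fewer cells of a type and less RNA per cell cannot be told apart. The shorter reads of the same 4 miRNAs fell as well, by 2.83 (miR-200b-3p), 3.98 (miR-429-3p), 3.86 (miR-200a-3p) and 3.52 (miR-182-5p) on the log2 scale. The calls, though not the direction, changed when libraries were left out. Without het replicate 4, without ko replicate 2, or without the 2 libraries over 5000000 reads, 0 long sums passed in limma, where 8, 9 and 7 were lower and 2, 0 and 2 higher at an unadjusted p under 0.05. Without het replicate 1 the count was 2, it was 1 without het replicate 2 or without ko replicate 1, and it was 6 without het replicate 3. With any 1 library left out the log2 fold changes stayed between -3.62 and -2.79 (miR-200b-3p), -4.19 and -3.05 (miR-429-3p), -3.29 and -2.45 (miR-200a-3p) and -2.93 and -2.14 (miR-182-5p). Without the 2 libraries over 5000000 reads they were -2.61, -3.54, -1.75 and -1.82.

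In all, 5 long sums had every ko library below every het library, the fifth being miR-212-3p, where 3.76% of all sums did. In the other direction 2 long sums did, miR-219a-2-3p and miR-485-5p, where 0.49% of all sums did. Of sums higher in ko, those with the smallest p were miR-770-3p (log2 fold change 1.71, SE 0.81), miR-219a-2-3p (0.91, SE 0.45) and miR-26a-5p (0.43, SE 0.29), with limma adjusted p from 0.712 to 0.875. None of the 10 most abundant long miRNAs passed. The smallest limma adjusted p among them was 0.883 for miR-138-5p, which had 2615 ± 932 CPM for het against 1840 ± 528 for ko (n = 4 per genotype).

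Whether the balance of long and shorter reads within a miRNA differed between genotypes was asked with the log2 ratio of their CPM, tested with limma for 154 miRNAs. At an adjusted p under 0.05, 0 passed (0% of those tested), and 8 (5.19%) had an unadjusted p under 0.05, all higher in ko. In 4 of the 154, or 2.6%, every ko library was above every het library (miR-200a-3p, miR-219a-2-3p, miR-485-5p and miR-770-3p). Of all 154, 95 had a positive difference, with a median of 0.06 on the log2 scale. The smallest p was that of miR-200a-3p, which was 4.98%, 4.56%, 5.18% and 5.97% long in het and 6.40%, 8.69%, 12.8% and 9.54% in ko. These did not overlap, but the log2 difference of 1.02 (SE 0.24) did not pass (limma adjusted p = 0.283). Over the alternatives the limma adjusted p ran from 0.000917, with a pseudocount of 10 and a log2 difference of 1.63, to 0.800, and the former was the only one to pass. Its long level was 4.45 and 5.22 CPM in ko replicates 1 and 2, below that pseudocount. Added to both classes, a pseudocount raises the ratio most where long reads are few, so this pass is not independent of it.
Next were miR-219a-2-3p, an oligodendrocyte miRNA, at 0.730% ± 0.203 in het and 1.29% ± 0.221 in ko, and miR-485-5p at 2.67% ± 0.418 and 4.82% ± 1.10 (limma adjusted p = 0.556 each, n = 4). Lower in ko with the smallest p were miR-339-5p (3.97% ± 1.44 and 2.21% ± 1.07), miR-329-5p (21.0% ± 1.96 and 17.0% ± 3.83) and the pair miR-669a-5p|miR-669p-5p, which share reads (40.8% ± 13.5 and 29.8% ± 9.19). The limma adjusted p was 0.945 for each.

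Single long reads were then compared. Of the 3299 sequences of the table averaging 10 CPM or more, 346 were long, and 2 of these passed in limma, where 0.485% of all sequences did. Both were lower in ko and were templated reads of miR-182-5p. In ko they averaged 5.25 CPM (24 nt) and 9.56 CPM (25 nt), so both reached 10 CPM through the het libraries alone. These calls therefore describe the reads that passed and support nothing further. At an unadjusted p under 0.05, 11 long reads were lower and 0 higher, where 5.3% of all sequences had such a p (4.18% lower and 1.12% higher). The 24 nt read tttggcaatggtagaactcacacc had 36.7, 38.5, 26.8 and 121.6 CPM in the het libraries, against 6.87, 2.61, 1.72 and 9.80 CPM in ko (log2 fold change -3.14, SE 0.56, limma adjusted p = 0.0146). The 25 nt read tttggcaatggtagaactcacaccg, which is the full RefSeq form, had 61.8, 50.2, 29.5 and 114.5 CPM in the het libraries, against 8.91, 3.16, 5.59 and 20.6 CPM in ko (log2 fold change -2.73, SE 0.54, limma adjusted p = 0.0327). Neither overlapped between genotypes, where 2.21% of all 3299 sequences had every ko library below every het library. The 25 nt read fell alongside the 22 nt read, which changed by -3.47 on the log2 scale.
Of long reads higher in ko, the smallest p were those of an AT-tailed read of miR-132-3p, an activity-induced miRNA of neurons, with 6.90 ± 4.62 CPM for het against 15.5 ± 3.30 for ko, and of a T-tailed read of miR-140-3p with 8.73 ± 7.63 against 17.8 ± 4.81 CPM (limma adjusted p = 0.941 each, n = 4). Without het replicates 1, 2 or 4, without ko replicate 2, or without the 2 libraries over 5000000 reads, 0 long reads passed in limma, and between 11 and 15 had an unadjusted p under 0.05. Higher and lower in ko were, in this order, 2 and 10, 2 and 9, 8 and 7, 2 and 13, and 0 and 12. The one-sided count of the main fit was thus lost without het replicate 4. The log2 fold changes of both miR-182-5p reads stayed between -3.48 and -2.69 (24 nt) and between -3.16 and -2.37 (25 nt) with any 1 library left out. They were -3.13 and -2.28 without the 2 libraries over 5000000 reads.

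Lists of miRNAs of known kinds are described by their members with at least 10 CPM of long reads. Over all 154 miRNAs that reached this level the median long share was 6.37%, but scarce miRNAs reach it only with a high share, and over the 278 miRNAs of at least 100 CPM in all it was 1.64%. The let-7 family had a median of 1.23% over 8 of 9 members, between the quartiles of those 278, from 0.373% for let-7f-5p to 7.13% for let-7b-5p. let-7i-5p (3.16% ± 0.651) and let-7e-5p (3.31% ± 0.690) were tailed in 98.4% and 88.4% of long reads. let-7c-5p, the most abundant of the family, was 1.45% ± 0.139 long.
The 10 abundant guides of brain had a median of 1.71%. It was 0.326% ± 0.0396 for miR-128-3p, 1.69% ± 0.329 for miR-124-3p, 1.74% ± 0.615 for miR-26a-5p and 1.90% ± 0.187 for miR-9-5p, and miR-138-5p and miR-181a-5p, given above, were the 2 members over 10%. Tails were on 82.9% of the long reads of miR-9-5p and 92.9% of those of miR-26a-5p.
In both lists 0 long sums passed in limma, where 1.63% of all sums did, a share at which lists of 8 and 10 would hold few calls or none, and the medians of the log2 fold changes were 0.11 and 0.23, beside 0.00 over all long sums. At an unadjusted p under 0.05, 0 of their members were called, where 6.86% of all sums were.

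Further lists hold miRNAs with known routes of end formation or decay. Of the guides known for target-directed degradation, miR-7a-5p and miR-7b-5p are given above, and miR-29b-3p was 6.52% ± 3.15 long, with 53.9% templated and 41.4% tailed. The median share of these 3 was 48.2% and the median log2 fold change of their long sums -0.20, with 0 called where 1.63% of all sums were. Of 8 miRNAs that bypass Drosha or Dicer, 7 had at least 10 CPM of long reads, with a median share of 18.2%, a median log2 fold change of -0.10 and likewise 0 called. miR-451a, which Argonaute2 cuts in place of Dicer, was 20.8% ± 4.40 long and 97.4% of that was templated, chiefly in reads of 24, 25 and 26 nt. Its long level was 358.8 ± 93.9 CPM for het against 189.7 ± 88.4 for ko (log2 fold change -1.02, SE 0.39, limma adjusted p = 0.484). miR-702-3p was 60.0% ± 8.62 long, but at 91.6 CPM in all it is below the level set for the order above, and all its tailed long reads match up to the end of the hairpin record, so that bases past it could not be called templated. Such reads were 0.885% ± 0.203 of tailed long reads over all miRNAs.

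The miR-200 and miR-183 clusters had 5 of 8 members with at least 10 CPM, of which 4 were called, all lower in ko, where 1.63% of all sums were. The long level of miR-200b-3p and miR-429-3p reached 10 CPM through the het libraries alone, so this count describes the members that passed and supports nothing further. The median share of the 5 was 5.55%. Their summed long reads ran from 175.9 to 748.3 CPM over the het and from 17.2 to 135.8 over the ko libraries. The fifth member, miR-200c-3p, did not pass (log2 fold change -2.19, SE 1.23, limma adjusted p = 0.779), with 55.0 CPM in ko replicate 3 and at most 1.27 CPM in the other ko libraries. As this list holds miRNAs already known to be lower in these ko libraries, its count is not independent evidence.
Markers of other sources were also read. Long reads of the blood list ran from 233.6 to 438.8 CPM over the het and from 91.1 to 281.2 over the ko libraries, with long reads from 3 of its 5 miRNAs in the table and miR-451a alone reaching 10 CPM of mean long level. miR-144-3p had 0 long of 18013 reads pooled over the libraries, which allows a share of up to 0.0167%, and miR-142a-5p 0 of 5399, which allows up to 0.0556%. Without ko replicate 2, which holds most of these reads, the limits are 0.0531% (of 5654 reads) and 0.133% (of 2258). Those of choroid plexus and ependyma ran from 260.9 to 363.1 CPM over the het and from 185.8 to 370.4 over the ko libraries, with miR-204-5p at 274.5 ± 50.2 and 241.1 ± 82.7 CPM (n = 4 each). For its 3 members with 10 CPM or more the median share was 7.17% and the median log2 fold change -0.23. In these 2 lists 0 of 4 tested long sums were called by limma (1.63% of all sums), with miR-451a alone at an unadjusted p under 0.05. Among the shorter reads of the blood list, in the same fit, the log2 fold change was -0.83 for miR-451a, -1.07 for miR-144-3p, -0.53 for miR-142a-3p, -0.25 for miR-223-3p and -0.04 for miR-142a-5p. Among those of choroid plexus and ependyma it was -0.12 for miR-204-5p, -0.85 for miR-34b-5p, -0.69 for miR-34c-5p, 0.60 for miR-449a-5p and 2.92 for miR-211-5p. Of these 10, miR-451a, miR-34c-5p and miR-211-5p had an unadjusted p under 0.05, and 0 passed adjustment (limma adjusted p from 0.242 to 0.993). Over all lengths miR-211-5p averaged only 17.6 CPM, with no reads in het replicates 1 and 2, and it reached 10 CPM through the ko libraries. The part of these cell types in the results was not tested.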

How the data were processed

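R-sRNAs of 8 mouse brains (4 het, 4 ko, grouped by sample title) were read from a table of distinct sequences with miRNA names. The authors made it with their SPOROS pipeline: reads were trimmed (Trim Galore, per the submitters' processing notes), collapsed, freed of rare and artificial sequences, and matched to small RNA lists by BLAST, so that this match decided which long reads received a name. Tool versions and the genome build are not given in the sources used here. The deposited values are CPM, scaled by the authors to 1000000 reads per library. All values (100%) were whole reads within 0.05 read, which gave depths of 509839 to 19878054. The deposited viability score of a seed is the authors' mean over 3 mouse cell lines from a screen. 0 columns of samples were left out. Intervals and the level of 3 reads cover counting error alone, since molecules were not tagged.

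Sequences of at least 24 nt with a miRNA name were summed by miRNA and by last base and set against RefSeq hairpins and mature forms (GRCm38), which matched 712 of 895 names. A read was templated where all of it, and tailed where at least its first 18 bases but not its end, matched a hairpin of its miRNA. Shares were compared by exact two-sided permutation tests (70 splits) with Benjamini-Hochberg adjustment over 9 measures, and long with shorter reads by exact sign-flip tests over the 8 libraries. Levels, long fractions and single reads were tested with limma 3.58.1 (trend, robust) in R 4.3.3 on log2(CPM + 1) with Benjamini-Hochberg adjustment, for means of at least 10 CPM. Python 3.11.15, numpy 2.4.6, pandas 2.3.3 and scipy 1.17.1 were used otherwise. The fits were first tested on simulated data. With changes of 2 on the log2 scale, limma recovered 94.5% of changed sums, 76% of changed single sequences and 100% of changed long fractions. False calls made up 4.06%, 3.18% and 9.09% of calls in this order, the last above the cutoff of 0.05. Alternatives were pseudocounts of 0.1 and 10, means of 1 and 100 CPM, limits of 25 and 26 nt, centring, edgeR 4.0.16 and DESeq2 1.42.0 on recovered reads, the replicate number as a block, and leaving out libraries or miR-30c-5p.

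Members, lists and tests were chosen with earlier results of these data known. Named miRNAs were the 10 with most long CPM, the 8 with the highest long share at a total of at least 100 CPM, and the 3 higher and 3 lower in ko with the smallest limma p for level and for long fraction. List members and the 2 long reads of smallest p either way were added. miR-30a-5p, miR-30b-5p, miR-212-3p, miR-136-5p, miR-153-3p and miR-219a-5p fall outside this rule and were chosen after their values were seen, as were the hairpin pairs of let-7c, miR-29b and miR-218 and the comparison of hairpins by length.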

Additional observations from a re-analysis of the deposited data

Results flagged for a closer look

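Of 126 groups of 4 libraries, 7 had 1 library whose gap to the nearest of the others, divided by the range of the group, passed Dixon's 95% value, where chance gives about 6.3. Of these, 4 were in the shallowest library, het replicate 1. There, 24.2% of long reads ended in A, against at most 22.0% in the other het libraries. In the same library the long share of let-7b-5p was 7.77% (next 6.94%), the long share of miR-125a-5p was 28.2% (next 19.3%), and the long level of miR-361-3p was 135.1 CPM (next 82.2 CPM).

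The remaining 3 were each in another library. The long share of miR-3102-3p was 41.7% in het replicate 3 (next 36.1%), and that of miR-26a-5p was 3.11% in ko replicate 4 (next 1.77%). The long level of miR-429-3p was 84.5 CPM in het replicate 4 (next 31.6 CPM). Without that library its log2 fold change was -3.21, against -3.60 with it.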

How the results depend on the processing

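Most differences between genotypes in shares of long reads were small and turned sign with the settings, and no value of opposite sign passed its test. In percentage points, ko minus het, the long share became 0.0185 with a limit of 25 nt, 0.235 without the 2 libraries over 5000000 reads, 0.0454 for reads at least 2 nt longer than the mature form and 0.0857 as a median over miRNAs. At 25 nt the difference was -0.0521 for C ends, -0.379 for the tailed share and -0.0118 nt for mean length. At 26 nt it was -0.335 for A ends, -0.101 for C ends and -0.127 for the tailed share, and mean length differed by 0.0390 nt (exact permutation p = 0.0286). T ends differed by -3.59 without the 2 deep libraries and by -0.142 without miR-30c-5p, and G ends by -0.598 among sequences of at least 1 CPM (exact permutation p = 0.0286). Leaving out each library gave -0.216 to 0.154 for the long share, -1.14 to 1.25 for A, -0.679 to 0.892 for C and -1.56 to 1.65 for T. It gave -0.206 to -0.0590 for 5′ extension (exact permutation p = 0.0286 without het replicate 4), -0.0555 to 0.852 for viability and -0.00396 to 0.00995 nt for mean length. A ends of long against shorter reads differed by 1.43 at 25 nt (exact sign-flip permutation p = 0.188) and by -3.48 at 26 nt.

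Called long sums, 4 as reported, numbered 0 without the 2 deep libraries and 0 to 6 when each library was left out. They also numbered 0 at a mean of 100 CPM, which none of the 4 reaches, and at 26 nt, where 19 long sums were tested and none of the 4 was among them. For the long fraction 2 miRNAs were called with a pseudocount of 10. Single long reads called, 2 as reported, numbered 6 at a mean of 1 CPM, 0 at 100 CPM, which neither read reaches, 0 without the 2 deep libraries, 1 by edgeR, 6 by DESeq2 and 0 to 4 when each library was left out. The log2 fold change of miR-26a-5p long reads turned to -0.14 at 26 nt. Over the limma alternatives the adjusted p ran from 0.00502 to 0.123 for miR-200b-3p, 0.00376 to 0.123 for miR-429-3p, and 0.00453 to 0.217 for miR-200a-3p and miR-182-5p. By DESeq2 it was 1.85e-07, 8.59e-06, 0.000176 and 5.25e-05 in this order and by edgeR 0.00911, 0.0389, 0.0480 and 0.0361, each lower in ko throughout. Replicate numbers are shared by the genotypes, but same-numbered libraries correlated by 0.00881, 0.297, -0.151 and 0.245 in their deviations and so share only a number. With the replicate block 5 long sums, 0 fractions and 4 single long reads were called. The limits of 25 and 26 nt for long against shorter reads, and leaving out libraries for long shares of named miRNAs, were chosen after seeing the data. Depth limited long reads in het replicate 1 and ko replicate 4, where 3 reads stand for 5.79 and 2.94 CPM.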

Other observations

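Of 44 shares that describe long reads, 2 did not overlap between genotypes. Tails of 2 nt made up 43.1% to 45.3% of tailed long reads in the het libraries and 45.6% to 48.0% in the ko libraries, a difference of 2.72 percentage points. Among templated long reads, those ending in G made up 2.27% to 3.08% in het and 1.33% to 1.90% in ko, a difference of -0.957 percentage points. Each reached the smallest p that 4 against 4 libraries allow, 0.0286 by exact permutation, and neither passed adjustment over the 44 shares (adjusted p = 0.629 for both). Tails of 1 nt pointed the other way, at 45.2% ± 1.36 for het against 42.2% ± 1.83 for ko (exact permutation p = 0.0571, adjusted p = 0.629, n = 4 per genotype).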
